A study of Canis lupus familiaris with 2 samples.

Results

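The genes described here carry peptide antigens to the cell surface or serve that task: NLRC5, DLA88, B2M and ERAP1 on the MHC class I side, and DLA-DQA1, HLA-DRB1 and CTSS on the MHC class II side. They were taken by symbol from a comparison table of 2 cell lines, where each symbol had 1 row, so that 7 of 1729 rows are members. The choice was made with the values of this comparison known, so their levels and directions are a description and no test is attached to them.

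The lines were CLBL-1, a line of canine diffuse large B-cell lymphoma labelled as stage IV and from lymph node, and CLBL-1 8.0, its doxorubicin-resistant form, kept in 8 µM doxorubicin hydrochloride. Both grew in RPMI medium with 10% fetal bovine serum, penicillin G and streptomycin; no drug is named for the parental medium. Doxorubicin is an anthracycline drug that slides between DNA bases and blocks topoisomerase II. Poly-A RNA was sequenced, each line is 1 sample, and no value below has a replicate check. Whether drug was present at harvest is not stated, so resistance and exposure cannot be told apart, and the labels name 1 resistant line. The values are abundances per gene whose unit is not stated, the depth is unknown, and no counting interval can be given. The table is a selection by the authors, in which the larger value of every row was at least 5.01 and every fold between nonzero values at least 1.59; a gene without a row was not analysed here.

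MHC class I molecules are a heavy chain paired with beta-2-microglobulin. They display peptides that come mostly from proteins cut by the proteasome in the cytosol, carried into the endoplasmic reticulum and trimmed there, and cytotoxic T cells read them on almost any nucleated cell. MHC class II molecules are an alpha and a beta chain that are loaded in endosomes with peptides from engulfed material, after the invariant chain that blocks their groove has been cut away. B cells, macrophages and dendritic cells can carry class II and show it to helper T cells. In human and mouse cells, both sets of genes share promoter elements bound by the RFX and NF-Y complexes, with NLRC5 as the coactivator at class I and CIITA at class II.

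All 4 class I members were lower in the resistant line and all 3 class II members were higher. Over all 1729 rows, 34.8% were lower and 65.2% were higher; because the members were picked from this same contrast, nothing is read from their counts against these shares. The class I members stood at 29.5% to 51.4% of their parental values, and the class II members at 179% to 197%. In RNA from a whole culture, fewer expressing cells and less RNA per cell cannot be told apart.

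DLA88 encodes the heavy chain of the dog class I molecule DLA-88 (gene ID 474836). Its value was 206 in CLBL-1 8.0 and 457 in CLBL-1. The resistant line was thus 2.22-fold lower, a log2 difference of -1.15 where the difference is log2((resistant + 1)/(parental + 1)), as for every log2 difference below. B2M, which encodes beta-2-microglobulin (gene ID 100855741), was at 797 in CLBL-1 8.0 and at 1550.0 in CLBL-1. This partner of the heavy chain was 1.95-fold lower, with a log2 difference of -0.96. The ratio of B2M to DLA88 within a line was 3.87 in CLBL-1 8.0 and 3.39 in CLBL-1, so the ratio differed 1.14-fold between the lines.

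ERAP1 is the endoplasmic reticulum aminopeptidase that trims peptides to the length that fits the class I groove, as known from human and mouse (gene ID 488898). It was at 34.8 in CLBL-1 8.0 and 68.4 in CLBL-1, 1.96-fold lower, with a log2 difference of -0.95. Its ratio to DLA88 was 0.169 in CLBL-1 8.0 against 0.150 in CLBL-1. NLRC5, the class I coactivator (gene ID 487268), had the lowest resistant-line value of the members, 9.71, against 32.9 in CLBL-1. It was 3.39-fold lower, a log2 difference of -1.66, further below its parental value than the heavy chain: the ratio of NLRC5 to DLA88 was 0.0472 in CLBL-1 8.0 and 0.0719 in CLBL-1. With a 2-fold limit on the log2(value + 1) scale, which 38.5% of all rows met in either direction, NLRC5 and DLA88 passed it and the other 5 members did not.

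**Figure D1:**
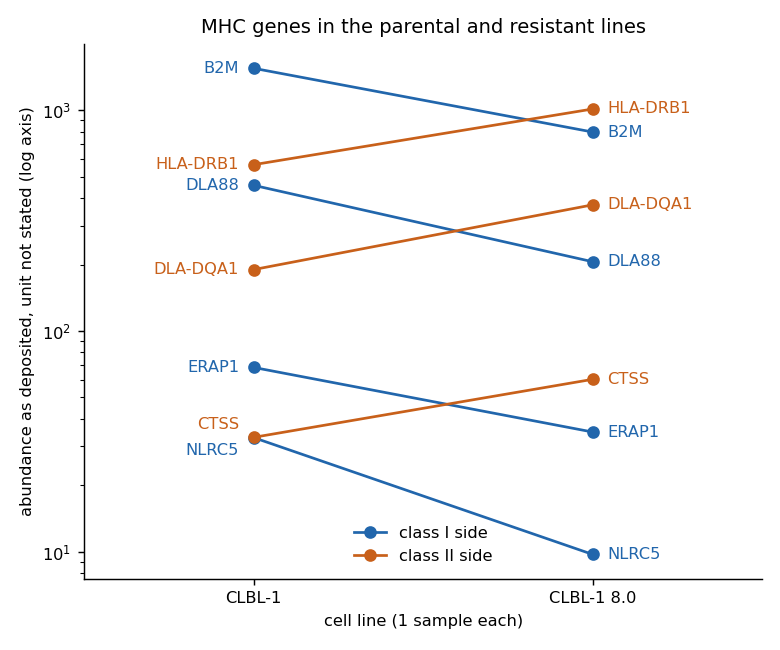
Deposited abundance (log axis, unit not stated) of the 7 MHC genes in CLBL-1 and CLBL-1 8.0, 1 sample each; lines join the 2 values of a gene. The 4 class I lines (blue) descend and the 3 class II lines (orange) ascend, and DLA-DQA1 passes DLA88, from 189.8 against 457 in CLBL-1 to 373 against 206 in CLBL-1 8.0.

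HLA-DRB1 is the table's symbol for the dog class II DRB1 beta chain (gene ID 474860). It was at 1014 in CLBL-1 8.0 and 567 in CLBL-1, 1.79-fold higher in the resistant line, with a log2 difference of 0.84. DLA-DQA1, the alpha chain of the other dog class II molecule, DQ (gene ID 474861), was at 373 and 189.8, 1.97-fold higher, with a log2 difference of 0.97. The ratio of HLA-DRB1 to DLA-DQA1 was 2.72 in CLBL-1 8.0 and 2.99 in CLBL-1, a 1.10-fold difference between these chains of different class II molecules. CTSS encodes cathepsin S, the endosomal protease that, in mouse and human antigen-presenting cells, cuts the last part of the invariant chain out of the class II groove (gene ID 403400). It was at 60.4 in CLBL-1 8.0 and 33.0 in CLBL-1, 1.83-fold higher, with a log2 difference of 0.85. CTSS per HLA-DRB1 was 0.0596 and 0.0581.

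A ratio of 2 genes within a line does not depend on how the lines are scaled against each other, and its change between lines does not depend on gene length. HLA-DRB1 over DLA88 was 4.93 in CLBL-1 8.0 and 1.24 in CLBL-1, a 3.97-fold change. DLA-DQA1 over DLA88 was 1.81 and 0.415, a 4.37-fold change. The sum of both class II chains over the sum of DLA88 and B2M was 1.38 and 0.377, a 3.67-fold change. Of the 21 pairs of members, the 12 pairs of a class I with a class II member changed their ratio by 3.48 to 6.65-fold. The 6 pairs within class I changed by 1.01 to 1.74-fold, the highest being those with NLRC5, and the 3 pairs within class II by 1.02 to 1.10-fold. These ranges follow in part from the choice of members by direction.

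If the values are per gene length, as FPKM and TPM both are, levels of different genes can also be set in order. In CLBL-1 the order of these levels was B2M, HLA-DRB1, DLA88, DLA-DQA1, ERAP1, CTSS and NLRC5, with CTSS and NLRC5 at 33.0 and 32.9. In CLBL-1 8.0 it was HLA-DRB1, B2M, DLA-DQA1, DLA88, CTSS, ERAP1 and NLRC5. Each class II member thus stood above a class I member that it stood below in CLBL-1: HLA-DRB1 above B2M, DLA-DQA1 above DLA88, and CTSS above ERAP1. Without replicates, no spread separates neighbours in either order. Among all 1729 levels of a line, HLA-DRB1 ranked 19 in CLBL-1 8.0 and 31 in CLBL-1, while B2M ranked 29 and 12. DLA88 ranked 93 and 38, DLA-DQA1 60 and 92, and NLRC5 1180 and 483.

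**Figure D2:**
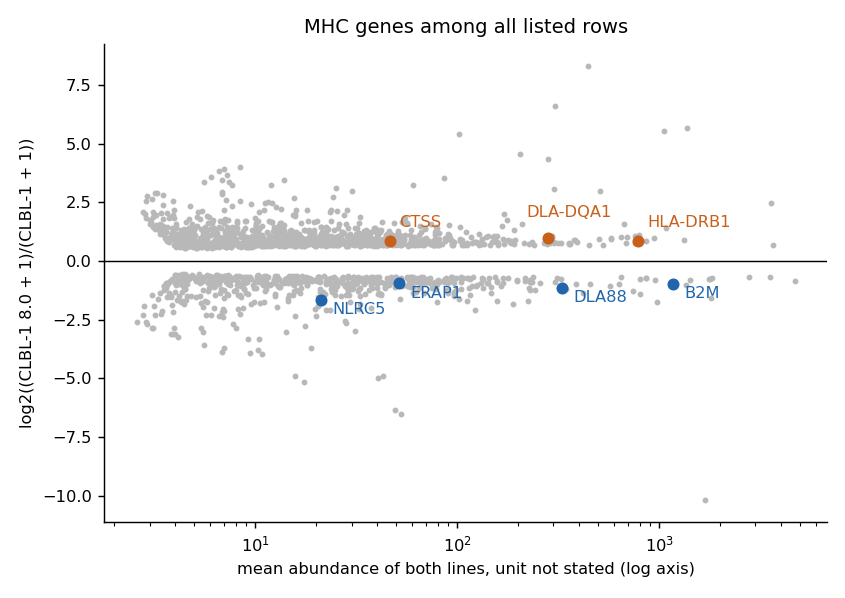
Log2 difference against the mean abundance of both lines (log axis, unit not stated) for all 1729 listed rows (grey), with the class I members in blue and the class II members in orange. The empty band around 0 comes from the selection of rows; the class II members lie at 0.84 to 0.97, and the class I members at -0.95 to -1.66, with NLRC5 farthest from 0.

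Larger differences than those of the members were common among the listed rows. Of the 602 rows that were lower in the resistant line, 85 had a larger decrease than NLRC5, 188 a larger one than DLA88, 272 than B2M and 277 than ERAP1. Of the 1127 higher rows, 445 had a larger increase than DLA-DQA1, 606 than CTSS and 631 than HLA-DRB1. The median log2 difference of all rows was 0.73. Measured from that median, the class I members lay at -1.68 to -2.39 and the class II members at 0.11 to 0.24. Rows with small differences are not listed and 65.2% of rows were higher, so any lower row lies far below this median. Nothing is therefore read from the distance of the class I members to it. The median is that of rows selected for being different and is no measure of the whole transcriptome. Equalising the upper quartiles of the lines corresponds to a log2 shift of 0.32 towards lower without a pseudocount, and to less for rows with low values when 1 is added. The class I log2 differences then ran from -1.27 to -1.98 and the class II ones from 0.52 to 0.65.

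**Figure D3:**
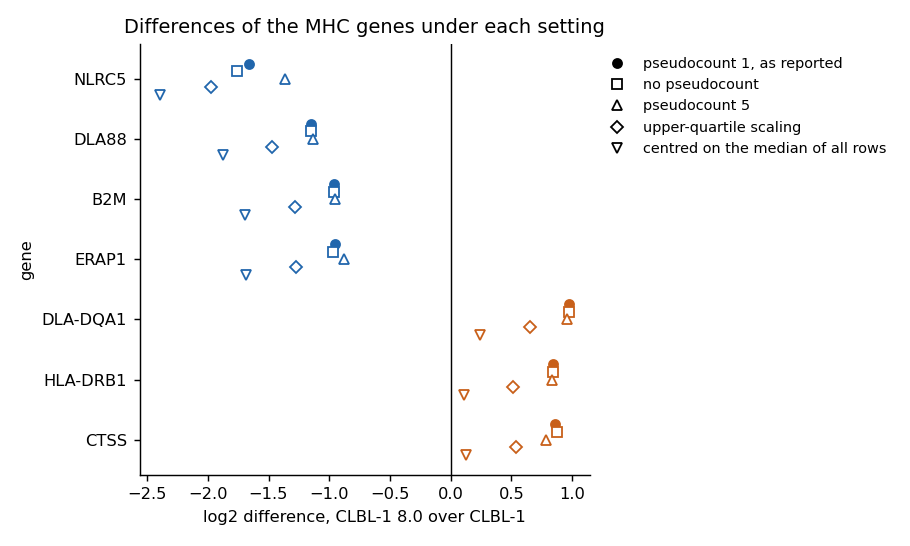
Log2 difference of each member (x axis) with a pseudocount of 1 (filled) and under 4 other settings (open symbols). Every setting leaves the class I members below 0 and the class II members above 0, and centring on the median of all rows leaves HLA-DRB1 at 0.11. A pseudocount cannot change a sign, and upper-quartile scaling and centring shift values down, so only the class II members could have crossed 0.

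The 3 chain genes lie in the dog MHC at the start of chromosome 12 (positions from the deposited table, whose build is CanFam3.1 in the submitters' processing notes). DLA88 is placed on the minus strand at positions 892442 to 1014728, HLA-DRB1 on the minus strand at 2151409 to 2164564, and DLA-DQA1 on the plus strand at 2221181 to 2256752. The class I and class II rows are thus 1.14 Mb apart and had opposite directions, while the 2 class II rows are 56.6 kb apart. The 8 rows between DLA88 and HLA-DRB1 were not of one direction: 6 were higher and 2 lower in the resistant line. From 1 Mb before DLA88 to 1 Mb after DLA-DQA1, there were 17 other rows, of which 14 were higher and 3 lower; their median log2 difference was 0.72. Over the whole of chromosome 12, 46 of 68 rows were higher, as were 65.2% of all rows. The class II chains, chosen as higher, had the direction of most neighbours, and DLA88, chosen as lower, did not. Nothing local is read from this.

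The 3 lower neighbours are few enough to name, and they were named after their values were seen. LOC100685196, described in the table as an alpha chain-like DLA class I antigen (positions 1020634 to 1021767, minus strand), lies 5.91 kb beyond the end of the DLA88 row. It was at 25.1 in CLBL-1 8.0 and 42.9 in CLBL-1, 1.71-fold lower, with a log2 difference of -0.75. It is the other listed row described as a class I chain, and its direction was that of DLA88. CFB, complement factor B, was at 6.79 against 11.7. RPS18, a protein of the small ribosomal subunit, was at 2721 against 4353. The nearest higher neighbours of DLA88 were ATP6V1G2, a subunit of the proton pump that acidifies endosomes, at 6.003 against 2.18, and PSORS1C2 at 5.80 against 3.43. Beside the class II chains, RXRB, a retinoid X receptor, was at 30.5 against 18.4 and LOC102152980 at 20.3 against 7.46.

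**Figure D4:**
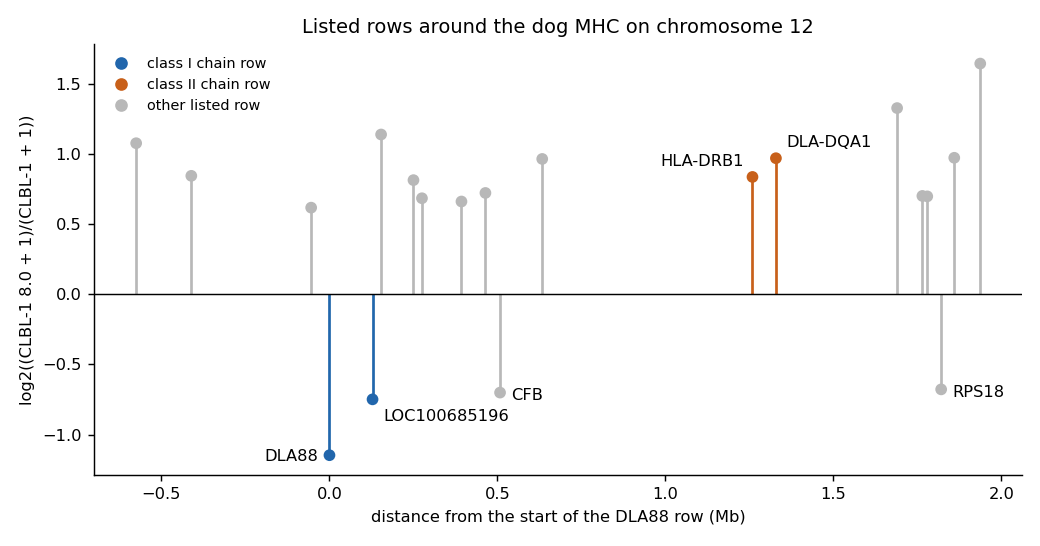
Log2 difference of the 20 listed rows around the dog MHC on chromosome 12, by distance from the start of the DLA88 row. Both class I chain rows (blue) point down, at -1.15 and -0.75, and both class II chain rows (orange) point up, at 0.84 and 0.97, among other rows (grey) of which CFB and RPS18 also point down.

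The spans of these rows limit what their values stand for. The DLA88 row covers 122 kb, against a median of 22.3 kb over all rows, and the other class I row, LOC100685196, covers 1.13 kb. In the gene order of a reference table of another dog assembly (UU_Cfam_GSD_1.0), CCHCR1, TCF19 and LOC481709 lie between PSORS1C2 and DLA88, and none of them had a row. Whether the DLA88 value includes reads from other genes within its span was not tested. The DLA-DQA1 row covers 35.6 kb, and DLA-DQB1, its beta chain partner, follows next in the reference order, also with no row. Class I heavy chain genes, and class II chain genes likewise, closely resemble their paralogs and are highly polymorphic, so reads could be shared between them or fail to match the reference alleles. No other listed row overlaps a member. In the reference table ERAP1 overlaps CAST, HLA-DRB1 overlaps a long noncoding RNA and a pseudogene, and CTSS overlaps a long noncoding RNA; how the counting treated strand is not stated.

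Much of the remaining MHC had no value. From DLA-DQA1 to RXRB, 12 protein-coding genes lie in the reference order, and none had a row. They include DLA-DQB1, the peptide transporter subunits TAP1 and TAP2, the immunoproteasome subunits PSMB8 and PSMB9, and the class II chaperone chains DLA-DMA, DLA-DMB, DLA-DOA and DLA-DOB. DLA-DRA, the alpha chain that pairs with DRB1, the class II coactivator CIITA and the invariant chain gene CD74 had no row either. These genes were not analysed here, and no level or direction can be given for them.

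The other 4 members lie on 4 other chromosomes. NLRC5 is on chromosome 2 at 59279535 to 59359327, where 21 of 55 other rows were lower like it, and 1 of the 5 rows within 5 Mb was. Its 3 nearest rows were all higher. FTO, an RNA demethylase, was at 24.2 in CLBL-1 8.0 against 12.8, MCCC2, a carboxylase subunit of leucine breakdown, at 138 against 84.8, and CDK7, a kinase of transcription and the cell cycle, at 59.3 against 35.6. ERAP1 is on chromosome 3 at 12879823 to 12920732, where 13 of 43 other rows were lower, and FAM172A, the nearest, was at 2.56 against 6.20. The next rows were higher, NR2F1, a nuclear receptor, at 37.2 against 22.4 and PAM, a peptide-amidating enzyme, at 6.55 against 2.05. B2M is on chromosome 30 at 11331574 to 11337991. There, 10 of 33 other rows were lower but 6 of 11 within 5 Mb were, among them SHF at 3.48 against 6.93 and CKMT1A, a mitochondrial creatine kinase, at 1.46 against 5.32, while SERF2 was at 1103 against 618. CTSS is on chromosome 17 at 59893840 to 59910878, where 33 of 57 other rows and 9 of 19 within 5 Mb were higher. Its neighbours ADAMTSL4 and NDUFA1, a subunit of respiratory complex I, were higher, at 25.6 against 9.51 and 246 against 85.9, and CA14, a carbonic anhydrase, was at 3.31 against 5.35. The class I members lie on chromosomes 2, 12, 3 and 30, where 60.7%, 67.6%, 68.2% and 67.6% of rows were higher, against 65.2% of all rows. They were chosen as lower rows, so nothing is read from their difference in direction from most rows of their chromosomes.

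The other genes of both pathways came from lists of symbols that include alternative spellings. Of 36 class I pathway symbols, 4 had a row, and these were the members themselves. Of 36 class II pathway symbols, 5 had a row and all 5 were higher, but 3 of these are the members, which were chosen by direction. The 2 others were MARCH8 and CTSF, and 65.2% of all rows were higher. MARCH8, a membrane ubiquitin ligase that in human cells marks MHC class II and other surface proteins for removal, was at 13.4 in CLBL-1 8.0 and 1.86 in CLBL-1, 7.23-fold higher. Its log2 difference depends on how the low parental value is treated: 2.34 with a pseudocount of 1, 2.85 without one and 1.43 with a pseudocount of 5. CTSF, cathepsin F, which can cut the invariant chain in mouse macrophages, was at 12.3 and 7.35, 1.68-fold higher; centring on the median of all rows took its log2 difference from 0.68 to -0.055.

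Among 34 regulators of MHC transcription, 4 had a row, of which 3 were higher, where 65.2% of all rows were. The 1 lower row was NLRC5, a member chosen as lower, so nothing is read from this split. The median was 0.70. RFXAP, a subunit of the RFX complex, was at 22.9 in CLBL-1 8.0 and 13.5 in CLBL-1. NFYA, a subunit of NF-Y, was at 49.1 and 29.4, and CREBBP, a histone acetyltransferase, at 20.9 and 12.6. Their log2 differences, from 0.69 to 0.72, turned to between -0.0080 and -0.043 when centred, so these 3 did not stand out from the typical listed row. CREBBP lies on chromosome 6, where 214 of 227 rows were higher.

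Of 32 interferon signalling genes, 3 had a row, 2 higher and 1 lower, where 65.2% of all rows were higher. This list did not hold response genes such as CXCL10, BST2, OAS1 and ISG20, so the count says nothing about the interferon response. These named rows were all lower. CXCL10 was at 7.80 in CLBL-1 8.0 against 36.8 in CLBL-1, BST2 at 7.09 against 49.0, OAS1 at 1.53 against 7.18 and ISG20 at 1.88 against 11.9. They were named after their values were seen and are no survey of response genes. TMEM173, the gene of STING, an adaptor of cytosolic DNA sensing, was listed at 0 in CLBL-1 8.0 and stood at 8.34 in CLBL-1. TLR3, a receptor for double-stranded RNA, was at 8.58 and 3.46. MAVS, the mitochondrial adaptor of RNA sensing, was at 35.4 and 22.0; centring took its log2 difference from 0.66 to -0.072.

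Few genes of the steps that feed class I had a row. Of 51 proteasome symbols, 3 had one and all 3 were lower, where 34.8% of all rows were: PSMB6, a catalytic core subunit, at 209 in CLBL-1 8.0 and 479 in CLBL-1, PSMD14, the deubiquitinase of the lid, at 58.3 and 138.0, and PSMD4, a ubiquitin receptor, at 496 and 796. PSMD14 lies on chromosome 36, where 45 of 46 rows were lower, and PSMB6 on chromosome 5, where 97 of 153 were lower. Of 32 genes of entry into and quality control in the endoplasmic reticulum, 2 had a row, both lower, where 34.8% of all rows were. They were SEC11C, a signal peptidase subunit, at 155 and 280.0, and DERL2, which serves the export of misfolded proteins, at 18.3 and 40.4. This shared direction depends on the choice of symbols. HYOU1, a chaperone of the endoplasmic reticulum, was not in the list and was higher, at 233 and 138. DERL2 is also on chromosome 5. The part of these chromosomes' shared direction in the values was not tested.

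Of 43 endosome and lysosome traffic genes, 6 had a row and all 6 were higher, where 65.2% of all rows were. Their median of 0.70 was slightly under the 0.73 of all rows. The uniform direction depends on the choice of symbols: the list held ATP6V1A but not other subunits of the same proton pump, which went both ways. ATP6V1B2 was lower, at 80.6 in CLBL-1 8.0 and 129 in CLBL-1, and ATP6V1F was higher, at 283 and 169. LAMP3, a lysosomal membrane protein of mature dendritic cells, was at 32.4 in CLBL-1 8.0 and 14.9 in CLBL-1. AP1S1, a subunit of the AP-1 clathrin adaptor, was at 366 and 184, and lies on chromosome 6. VPS16, a subunit of the complexes that tether late endosomes, was at 41.8 and 25.2. VPS16, CD63, RAB5B and ATP6V1A turned to between -0.025 and -0.051 when centred. Of 28 costimulation and recognition genes, 2 had a row, both lower, where 34.8% of all rows were. They were LGALS9, a galectin, at 5.21 and 11.9, and TNFRSF14, a receptor also called HVEM, at 16.7 and 29.0. The shared direction depends on the choice of symbols. ICOS, at 7.67 and 2.28, and BTLA, at 5.59 and 2.61, were not in this list and were higher.

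**Figure D5:**
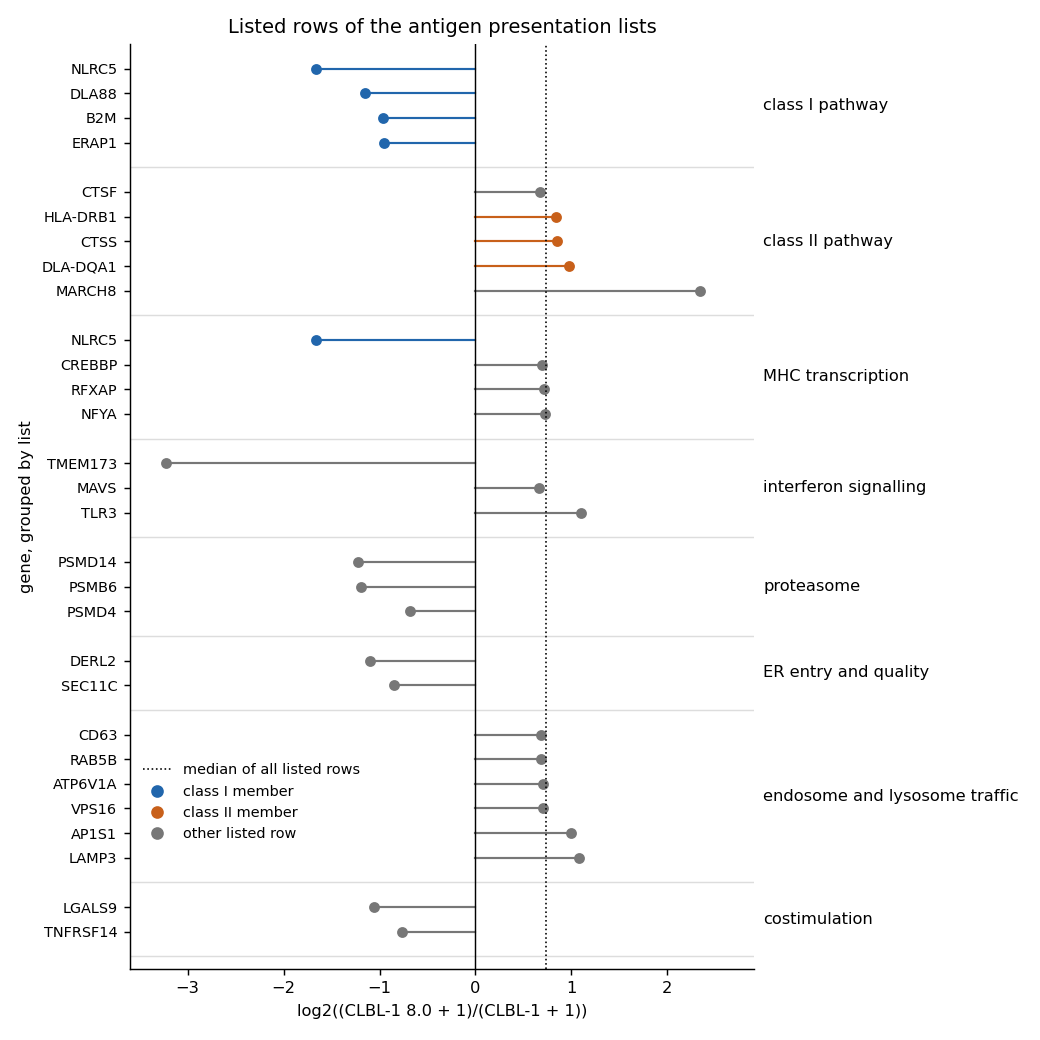
Log2 difference of every listed row of 8 gene lists, grouped by list, with the class I members in blue, the class II members in orange and the median of all rows, 0.73, as a dotted line. NLRC5 appears in 2 lists; the point of TMEM173, listed at 0 in the resistant line, is set by the pseudocount.

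Because class II and cathepsin S also mark macrophages and dendritic cells, markers of other cells were looked up. Of 25 myeloid and dendritic markers, 1 had a row, FCER1G, an Fc receptor chain, at 14.0 in CLBL-1 8.0 and 7.74 in CLBL-1. What is seen depends on the choice of symbols. Outside this list, FCER1A, another Fc receptor chain, was lower, at 1.26 and 10.1, and C3AR1, a complement receptor, was higher, at 38.8 and 16.4. Of 26 T and NK cell markers, 6 had a row, 3 higher and 3 lower, and their summed value was 104 and 88.1, with none listed at 0. TRAT1, a T cell receptor adaptor, was at 20.6 and 2.72, THEMIS, a thymocyte signalling protein, at 0.0989 and 5.69, and PRF1, perforin, at 1.07 and 6.67. Of 16 stromal and epithelial markers, EPCAM had a row, at 2.07 and 5.26. SPARC, a matrix protein gene outside this list, was higher, at 340 and 198. None of 17 B cell markers had a row, so the labelled cell type could not be checked against them here. Other genes of B-lineage cells did have rows, such as MZB1, at 0.281 and 18.7, and CD37, at 26.6 and 50.4. They were named after their values were seen and were not used for such a check. The part of other cells in the MHC values was not tested.

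For each member, the row with the most similar pair of values was found by Euclidean distance between the log2(value + 1) of both lines, over 2 samples. CTSS was nearest to CAPN2, a calpain protease, at a distance of 0.0025, and ERAP1 to TNFSF10, the death ligand TRAIL, at 0.034. HLA-DRB1 was nearest to CHCHD2, a mitochondrial protein gene, at 0.040, and DLA-DQA1 to AP1S1 at 0.052. DLA88 was nearest to PSMB6 at 0.071, and NLRC5 to RXRA, a retinoid X receptor, at 0.090. B2M was nearest to the TUBB4B row of chromosome 9, a beta-tubulin, at 0.29; that symbol has another row with the same resistant-line value, so its identity is uncertain. With 2 samples, such closeness says only that level and difference were alike.

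The deposited ontology and pathway tables hold 118 and 50 terms, and none of these is named for antigen, MHC or histocompatibility. Members occur in 18 terms, and 2 or more of them in 6. In the authors' deposited table, herpes simplex infection (24 genes, p-value 0.0149) and HTLV-I infection (37 genes, p-value 0.00045) both hold DLA88, DLA-DQA1 and HLA-DRB1. By the signs of the same rows, 15 of the 24 and 24 of the 37 genes were higher, where 65.2% of all rows were. Both terms hold members of both directions, and nothing is read from these counts. Influenza A (23 genes, p-value 0.00947 in the authors' deposited table) holds both class II chains. In it 14 genes were higher, beside the same 65.2% of all rows. The ontology term lysosome (17 genes, p-value 0.0478 in the authors' deposited table) holds DLA-DQA1 and CTSS. In it 16 genes were higher, where 65.2% of all rows were, and the members among them were chosen as higher. External side of plasma membrane (20 genes, p-value 0.088) and extracellular exosome (205 genes, p-value 0.0239) of the authors' deposited table hold B2M, the former with DLA-DQA1 and the latter with ERAP1. How these p-values were computed, and against which background, is not stated.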

How the data were processed

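Poly-A RNA of CLBL-1 and CLBL-1 8.0 came from 3 dishes, per the labels' protocols, and whether these were pooled is not stated. HISAT2, StringTie and CanFam3.1 are named in the submitters' processing notes, without versions. The abundance values deposited by the authors have no stated unit. The authors' log2 fold changes, per the file headers, match values recomputed without a pseudocount (CLBL-1 8.0 over CLBL-1) to within 1.6e-14 in 1720 rows. The p-value and gene number of each term are the authors', per the file headers.

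Differences were computed with a pseudocount of 1 and no filter, using Python 3.11.15, pandas 2.3.3 and numpy 2.4.6, and the procedures were tested on simulated data. With 1 sample per group, no test was made. Alternatives were no pseudocount, a pseudocount of 5, upper-quartile scaling, median centring and a mean value of at least 5. Named are all members, all listed rows of both pathway lists, up to 3 rows of other lists by size, the nearest row by value, up to 3 neighbours, and terms with 2 or more members; a few further rows were named after their values were seen. Members and lists were chosen with earlier results of these data known. The reference table UU_Cfam_GSD_1.0 served for gene names and order, and all 7 members were found in it. One gene of the lists is not reported here and is left out of their counts.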

Additional observations from a re-analysis of the deposited data

How the results depend on the processing

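All 4 class I members stayed lower and all 3 class II members higher without a pseudocount, with a pseudocount of 5, with upper-quartile scaling (parental values multiplied by 1.25), with centring on the median and with a mean value of at least 5. Most of these settings could not change a direction. A pseudocount does not alter the sign of a difference, and every member had a mean value above 5. Upper-quartile scaling and centring could have turned only the class II members. The number of members at least 2-fold apart went from 2 to 4 with upper-quartile scaling and to 4 with centring, since both shift every difference downwards. Centring also made 1 class II pathway row lower, CTSF at -0.055, against 0 before. It turned NFYA to -0.0080, RFXAP to -0.014, CREBBP to -0.043, MAVS to -0.072, CD63 to -0.051, RAB5B to -0.049, VPS16 to -0.025 and ATP6V1A to -0.031. The change of the class II to class I ratio, 3.97-fold for HLA-DRB1 over DLA88, was 4.37-fold with DLA-DQA1 and 3.67-fold for the sums of both chains over DLA88 plus B2M. No paired analysis was possible because each group is 1 sample, and for the same reason no sample could be left out. The planned search for promoter motifs was not run, as no sequences were used here. Depth is unknown, so no value has a counting error.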
